A study of Mus musculus with 26 samples.

Results

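The 10 genes described here are cell cycle and p53 genes that have been linked to the circadian clock, and they were listed by name with earlier results of these data known. They are Wee1, Cdkn1a, Cdkn1b, Cdkn1c, Ccnd1, Ccnd2, Ccnd3, Mdm2, Gadd45a and Trp53, and all 10 were found once each among the 55416 genes of the deposited tables. RNA-seq was done on choroid plexus (ChP) of the 4th ventricle of adult male C57Bl6J mice. The 12 sham-operated mice (Ctrl) and the 12 mice with a lesion of the suprachiasmatic nuclei (SCNx), the central circadian pacemaker, were moved from a cycle of 12 h light and 12 h darkness into constant darkness. Killing was spaced by 4 h from circadian time (CT) 0 to CT44, so each time point of a group is 1 mouse. A further pair of mice of the genotype FoxJ1-ERT2-Cre+/-; Bmal1fl/fl (KO) ate tamoxifen citrate at 0.4 g/kg of diet, stayed in the light-dark cycle and was killed at Zeitgeber time (ZT) 7 or ZT18. Cre is driven there by the promoter of Foxj1, a gene of ciliated cells, so other cells of the ChP keep the clock gene Bmal1, listed as Arntl. The KO mice were kept at another site, their ChP was taken by laser capture from frozen brains and the libraries were made with another kit, so KO levels were not set against those of Ctrl and SCNx.

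The cell cycle is gated at defined points, and the clock is known to act on some of the gates. The kinase WEE1 holds back CDK1 before mitosis, and its gene is a textbook target of the CLOCK and BMAL1 activators. The p21, p27 and p57 proteins, encoded by Cdkn1a, Cdkn1b and Cdkn1c, bind and block cyclin-dependent kinases, while the D-type cyclins encoded by Ccnd1, Ccnd2 and Ccnd3 drive the exit from G1. The tumour suppressor p53 (Trp53) switches on Cdkn1a, Gadd45a and Mdm2 after DNA damage, and the MDM2 ligase marks p53 for degradation. In Cdkn1a, sites for REV-ERB and ROR nuclear receptors are known as another link to the clock. Most epithelial cells of the adult ChP do not divide.

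Cdkn1a is the member with a strong rhythm whose promoter windows were at hand, and its windows are printed to show which letters lie before its starts. The 250 bases before each of 2 annotated starts are given 5′ to 3′ on the + strand, from RefSeq's GRCm38.p6 build, which is not the GRCm39 build of the counts. Capitals mark the p53 half-site core ACATGTC, or its reverse complement GACATGT, in the first window and the GC box GGGCGG in the second.

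Cdkn1a, chr17:29090729-29090978: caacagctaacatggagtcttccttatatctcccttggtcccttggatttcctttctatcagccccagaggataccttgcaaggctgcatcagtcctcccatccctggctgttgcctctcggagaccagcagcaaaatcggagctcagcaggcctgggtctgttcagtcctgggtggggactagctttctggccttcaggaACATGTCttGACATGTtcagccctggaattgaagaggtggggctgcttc
Cdkn1a, chr17:29093519-29093768: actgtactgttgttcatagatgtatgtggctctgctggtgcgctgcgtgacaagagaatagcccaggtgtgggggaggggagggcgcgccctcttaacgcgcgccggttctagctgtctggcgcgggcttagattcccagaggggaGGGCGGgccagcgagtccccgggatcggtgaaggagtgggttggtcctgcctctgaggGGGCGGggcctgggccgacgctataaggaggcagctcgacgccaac

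The first window held ACATGTC on both strands, starting 49 and 40 bases before the start, and 1.62% of all 32851 windows of this length held the motif. It was the only 1 of the 8 windows found for 6 members (Cdkn1a, Cdkn1b, Ccnd3, Mdm2, Gadd45a and Trp53) to hold it. The letters of 4 clock elements were searched on both strands too, and none of the 8 windows held them. The GC box was in 6 of the 8, and in 32.7% of all windows. The clock elements were the E-box CACGTG (6.02% of all windows), the E'-box CACGTT (3.85%), the D-box TTATGTAA (0.82%) and the ROR element TAGGTCA (2.23%). A match is a description of letters and not a bound site, and elements outside these windows were not searched.

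In the deposited table, Ctrl and SCNx libraries held between 38751201 and 49527655 estimated counts, and the KO libraries 17425207 and 18059227. Levels are given as CPM, the count scaled by library size, with TMM factors of edgeR for Ctrl and SCNx. Marker sums, CPM per kb and night minus day differences did not use these factors, except where TMM is named. The 10 epithelial markers summed to between 114200 and 170000 CPM in the 24 libraries, and to 82400 and 86750 in KO. Libraries that stood apart were Ctrl CT16 and SCNx CT0, where 10 hepatocyte markers summed to 3054 and 12680 CPM against medians of 347.6 in Ctrl and 336.15 in SCNx. In Ctrl CT4 and SCNx CT32, 13 neuronal markers summed to 375.7 and 585.5 CPM against medians of 20.0 and 18.9. Astrocyte markers moved with the neuronal ones, up to 322.4 and 840.2 CPM in these same mice. Sums of the other lists ranged over Ctrl and SCNx from 33.4 to 77.3 CPM for ependyma, 338.5 to 481.8 for fibroblasts, 93.2 to 233.9 for endothelium, 41.5 to 82.8 for macrophages and 55.95 to 280.9 for oligodendrocytes. The fits below were also made without each pair of these mice. In such bulk tissue, fewer cells of a type and less RNA per cell cannot be told apart.

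All 10 members were expressed and passed the minimum mean of 1 CPM in Ctrl and in SCNx. To compare genes, CPM was divided by the length of their merged exons in kb, as annotated in GRCm38. In Ctrl, Cdkn1c had the highest level with 85.9 ± 8.06 CPM per kb (SD, n = 12 mice) and Gadd45a the lowest with 0.778 ± 0.252. Between them came Ccnd2 (38.7 ± 6.31), Mdm2 (22.5 ± 2.65), Ccnd3 (20.1 ± 1.86), Cdkn1b (10.9 ± 0.649), Cdkn1a (5.71 ± 1.86), Trp53 (3.97 ± 0.277), Ccnd1 (3.36 ± 0.431) and Wee1 (3.16 ± 1.11). Neighbours in this order overlapped in their ranges over the mice from Mdm2 to Ccnd3, from Cdkn1a to Trp53, from Trp53 to Ccnd1 and from Ccnd1 to Wee1, and the others were apart. The SCNx mice gave the same order of mean levels per kb, with the same overlaps.

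The first question was whether the genes followed a 24 h rhythm in mice with an intact SCN. Wee1 and Cdkn1a did, each with a swing of over 2-fold between trough and peak, and their peaks lay in different parts of the cycle. A 24 h cosine and sine per group were fitted to the 24 libraries with edgeR, and a gene was called at an adjusted p under 0.05. Of the 10 members 2 were called in Ctrl, where 10.7% of all 13697 genes tested were called (1459 genes), and 5 had an unadjusted p under 0.05, against 24.8% of all genes. Cell type markers were called in the same fit too, beside the 10.7% of all genes, with 8 of 10 for hepatocytes, 3 of 5 for fibroblasts and 2 of 10 for the epithelium. For the difference between the groups, 7 hepatocyte markers were called, beside 2.12% of all genes. No tested marker of ependyma, endothelium, macrophages, neurons, oligodendrocytes or astrocytes was called in Ctrl. Without Ctrl CT16 and SCNx CT0, the mice with the highest hepatocyte sums, the log2 amplitude in Ctrl was 0.68 for Wee1 and 0.59 for Cdkn1a, and both were called for the rhythm and for the difference. The part of fibroblast content in these results was not tested.

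**Figure D1:**
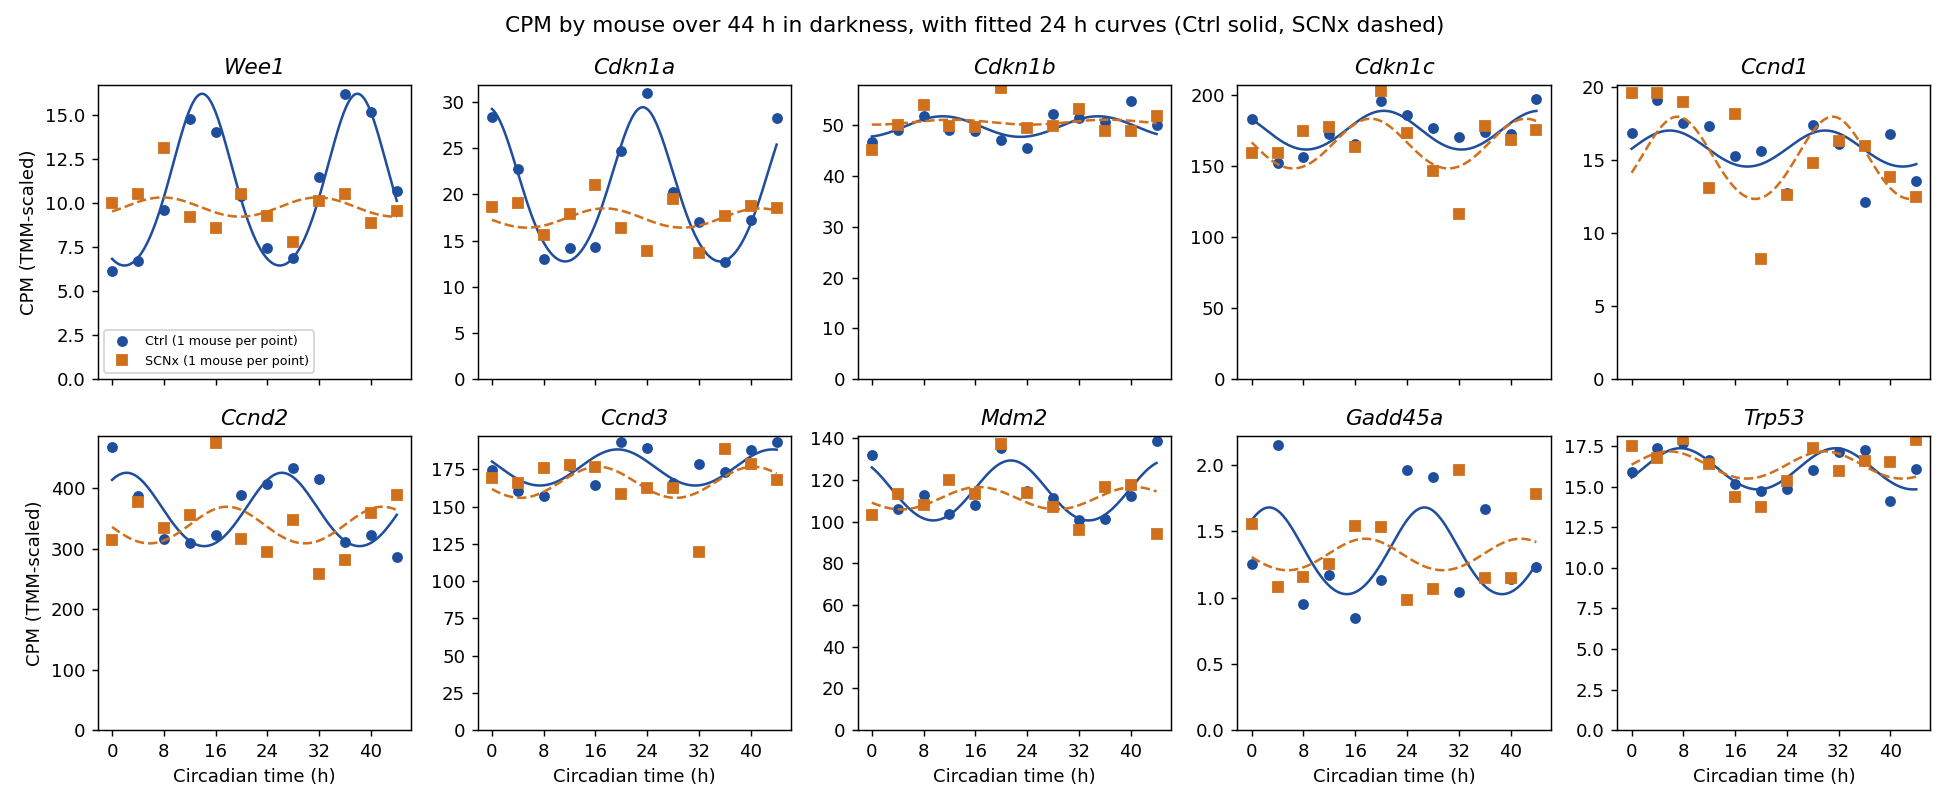
TMM-scaled CPM (vertical axis, from 0) against circadian time in hours for the 10 genes, with 1 mouse per point and the fitted 24 h curve of Ctrl (circles, solid line) and SCNx (squares, dashed line). Wee1 in Ctrl moved between 6.15 and 16.2 CPM with maxima at CT12 and CT36, Cdkn1a between 12.7 and 30.9 CPM with maxima at CT0 and CT24, and the SCNx points of both lay within these ranges.

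Wee1 (ENSMUSG00000031016) had a lowest value of 6.15, a median of 10.5 and a highest value of 16.2 CPM over the 12 Ctrl mice. The 4 lowest mice (CT0, CT4, CT24 and CT28) lay between 6.15 and 7.41 CPM, and the 4 highest (CT12, CT16, CT36 and CT40) between 14.02 and 16.18 CPM. The 4 mice of CT8, CT20, CT32 and CT44 fell in between, from 9.61 to 11.5 CPM, so that the 3 sets of times did not overlap and each held the same hours of both days. The fitted log2 amplitude was 0.66 ± 0.04 (SE), a 2.51-fold swing from trough to peak, with the peak at CT13.9 ± 0.25 h (edgeR adjusted p = 6.22e-06). By p Wee1 ranked 21 of the 13697 genes, and by amplitude 502.

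In SCNx, Wee1 ranged from 7.76 to 13.1 CPM with a median of 9.78. Every SCNx value lay inside the Ctrl range, and the highest was the mouse of CT8. The fitted amplitude was 0.09 ± 0.08, with no call of a rhythm (edgeR adjusted p = 0.65). The rhythm differed between the groups when the difference itself was tested (edgeR adjusted p = 0.00114).

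Cdkn1a (ENSMUSG00000023067), which encodes p21, had a lowest value of 12.7, a median of 18.8 and a highest value of 30.9 CPM in Ctrl. Its 4 highest mice were those of CT0, CT20, CT24 and CT44, from 24.7 to 30.9 CPM, and its 4 lowest those of CT8, CT12, CT16 and CT36, from 12.7 to 14.3 CPM. High levels thus lay at the turn from subjective night to day on both days. The log2 amplitude was 0.60 ± 0.06, a 2.30-fold swing, with the peak at CT23.3 ± 0.39 h (edgeR adjusted p = 3.34e-05, rank 59 of 13697 by p and 585 by amplitude).

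In SCNx, Cdkn1a ranged from 13.7 to 21.1 CPM with a median of 18.2, inside the Ctrl range in all 12 mice. The fitted amplitude was 0.08 ± 0.08 (edgeR adjusted p = 0.74 for a rhythm). Tested directly, the rhythm of Cdkn1a differed from that in Ctrl (edgeR adjusted p = 0.00723). Of the 10 members, Wee1 and Cdkn1a were the 2 called for such a difference, where 2.12% of all genes were (291 genes). A further 1, Ccnd2, had an unadjusted p under 0.05 for the difference, against 15.1% of all genes.

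The peak of Cdkn1a came 9.39 ± 0.46 h (SE) after that of Wee1. Clock genes of the same mice give the scale. Nr1d1, the gene of the repressor REV-ERBα, peaked at CT7.55 ± 0.31 h, the output factor gene Dbp at CT10.2 ± 0.10 h, Per2 at CT14.8 ± 0.44 h and Arntl at CT22.9 ± 0.14 h. Wee1 peaked 3.72 ± 0.27 h after Dbp, and its peak preceded that of Per2 by 0.84 ± 0.51 h. Cdkn1a peaked 0.45 ± 0.41 h after Arntl. The log2 amplitudes of these clock genes in Ctrl, from 1.30 for Per2 to 2.45 for Nr1d1, were larger than those of Wee1 and Cdkn1a, and all 4 were called for a difference of the rhythm.

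**Figure D2:**
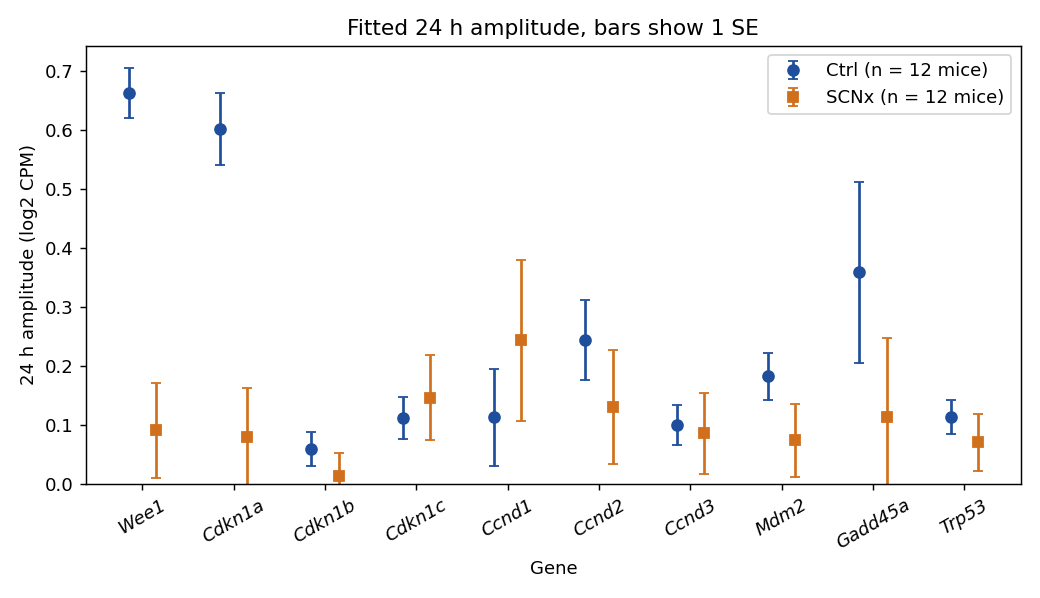
Fitted 24 h amplitude on the log2 CPM scale (vertical axis, from 0) for each gene in Ctrl (circles) and SCNx (squares), 12 mice each, with bars of 1 SE from the spread of the mice around the curve. Wee1 and Cdkn1a stood at 0.66 and 0.60 in Ctrl and at 0.09 and 0.08 in SCNx.

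The calls of Wee1 and Cdkn1a did not depend on single mice. Without any 1 of the 24 mice, the amplitude of Wee1 in Ctrl lay between 0.64 and 0.69 and that of Cdkn1a between 0.58 and 0.63, and both kept the call of a rhythm and of a difference in all 24 fits. A rank test of the eJTK type, which uses the order of values alone, called 2 members in Ctrl, Wee1 (adjusted p = 0.0229) and Cdkn1a (adjusted p = 0.0118), where it called 6.74% of all genes. In SCNx it called none of the 13697 genes (0.0%).

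At the more lenient adjusted p of 0.4, 7 of 10 members passed in Ctrl with edgeR, beside 41.7% of all genes. In SCNx 1 of 10 did (Cdkn1c), beside 22.4%, and for the difference 4 of 10 (Wee1, Cdkn1a, Mdm2 and Ccnd2), beside 22.2%. By the rank test at 0.4, 9 of 10 members passed in Ctrl, all but Ccnd1, beside 50.6%, and 0 of 10 in SCNx, beside 0.0073%. With edgeR fitted to the Ctrl mice alone, 4 of 10 members (Ccnd2 and Mdm2 besides) were called at 0.05, beside 14.6% of all genes.

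Mdm2 (ENSMUSG00000020184) had a lowest value of 100.5, a median of 111.8 and a highest value of 138.7 CPM in Ctrl. Its 4 highest mice were those of CT0, CT20, CT24 and CT44, the same times as for Cdkn1a, and its fitted peak lay at CT21.5 ± 0.84 h. The log2 amplitude was 0.18 ± 0.04 and missed the threshold (edgeR adjusted p = 0.0511). The call depended on the mice and the tool. It passed in DESeq2 (adjusted p = 0.017), and it passed in edgeR without any 1 of Ctrl CT4, CT8, CT16, CT24 or CT40, or SCNx CT8, CT12, CT20, CT32 or CT44, with adjusted p from 0.0182 to 0.0493. It also passed without Ctrl CT16 and SCNx CT0 (edgeR adjusted p = 0.0483) and without Ctrl CT4 and SCNx CT32 (edgeR adjusted p = 0.0312). In SCNx, Mdm2 ranged from 93.96 to 137 CPM with an amplitude of 0.07 ± 0.06, and the difference between the groups was not called (edgeR adjusted p = 0.38).

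Trp53 itself (ENSMUSG00000059552) varied little. It ranged from 14.2 to 17.7 CPM around a median of 16.1 in Ctrl and from 13.7 to 17.9 CPM around 16.6 in SCNx. The amplitude of 0.11 ± 0.03 in Ctrl, with a fitted peak at CT7.5, had an edgeR adjusted p of 0.18. In SCNx the amplitude was 0.07 ± 0.05, and the 4 lowest mice of both groups included those of CT16, CT20 and CT24. Gadd45a (ENSMUSG00000036390), which encodes a stress-induced growth arrest protein, was near the minimum level, from 0.85 to 2.15 CPM in Ctrl and from 0.99 to 1.97 CPM in SCNx. Its amplitude of 0.36 ± 0.15 in Ctrl was the largest after those of Wee1 and Cdkn1a, but the mice scattered around the curve and the rhythm was not called (edgeR adjusted p = 0.25).

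The genes of the other kinase inhibitors were not called in either group. Cdkn1b (p27, ENSMUSG00000003031) ranged from 45.5 to 54.9 CPM in Ctrl and from 45.3 to 57.4 CPM in SCNx, with amplitudes of 0.06 ± 0.03 and 0.01 ± 0.04. It had the smallest spread of the 10 in both groups, with a coefficient of variation of 5.29% in Ctrl and 6.06% in SCNx. Cdkn1c (p57, ENSMUSG00000037664) ranged from 152 to 197.5 CPM around a median of 173.7 in Ctrl. In SCNx it ranged from 116.1 to 202.9 CPM around 170.8. Its amplitude was 0.11 ± 0.04 in Ctrl (edgeR adjusted p = 0.37) and 0.15 ± 0.07 in SCNx (edgeR adjusted p = 0.33), the smallest adjusted p of the 10 in SCNx and the 1 with an unadjusted p under 0.05, against 14.8% of all genes. Its lowest SCNx value, like those of Cdkn1a, Ccnd2 and Ccnd3, was in SCNx CT32, the mouse with the highest sum of neuronal markers and, with 114200 CPM, the lowest sum of epithelial markers. Without Ctrl CT4 and SCNx CT32 the SCNx amplitude of Cdkn1c was 0.09.

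None of the D-type cyclin genes was called, and they differed in scatter. Ccnd2 (ENSMUSG00000000184) ranged from 286.8 to 468.7 CPM in Ctrl, with the 4 highest mice at CT0, CT24, CT28 and CT32. Its amplitude was 0.24 ± 0.07 with a fitted peak at CT2.2 ± 1.07 h (edgeR adjusted p = 0.12). In SCNx it ranged from 258.6 to 475.7 CPM with its highest mouse at CT16, and the amplitude was 0.13 ± 0.10. Ccnd3 (ENSMUSG00000034165) ranged from 156.8 to 193.6 CPM in Ctrl and from 119.3 to 188.5 CPM in SCNx, with amplitudes of 0.10 ± 0.03 and 0.08 ± 0.07. Of the 24 fits without 1 mouse, it was called in Ctrl in the 1 without SCNx CT32, its lowest value (edgeR adjusted p = 0.0352). Ccnd1 (ENSMUSG00000070348) ranged from 12.1 to 19.1 CPM in Ctrl and from 8.19 to 19.6 CPM in SCNx. It had the widest scatter of the 3 cyclins in SCNx, with a coefficient of variation of 22.7%, and amplitudes of 0.11 ± 0.08 and 0.24 ± 0.14. Annotated genes on the opposite strand overlap Ccnd1 (LTO1, at 14.1 CPM) and Ccnd3 (Bysl, at 26.5 CPM), and reads in the overlap cannot be told apart without strand.

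In SCNx none of the 10 members was called rhythmic with edgeR, and neither was any of the 13697 genes (0.0%), while 2032 genes (14.8%) had an unadjusted p under 0.05. DESeq2 called 432 genes in SCNx, none of them a member, and limma-trend called 0. The median amplitude of the 10 was 0.15 in Ctrl and 0.09 in SCNx, beside 0.11 and 0.09 over all genes tested. An amplitude carries an SE of 0.04 to 0.14 in SCNx, so that low amplitudes were not told apart from 0.

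The next question was whether the lesion changed the mean level over all times. No member was called, and no gene of the 13697 was (0.0%), while 1283 genes (9.37%) and 0 members had an unadjusted p under 0.05. DESeq2 called 7 genes and limma-trend 0, none of them a member. The fitted level was lower in SCNx for 8 members and higher for 2, and all 95% intervals included 0.

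**Figure D3:**
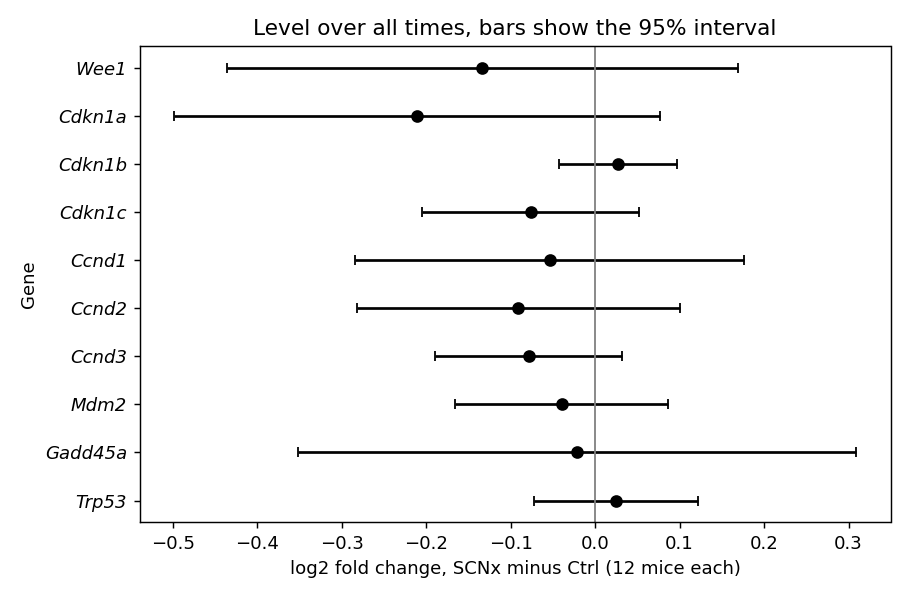
Log2 fold change of the mean level, SCNx minus Ctrl (horizontal axis), for each gene, with the 95% interval of the edgeR fit over 12 mice in each group. All 10 intervals include 0, from the narrow one of Cdkn1b (−0.04 to 0.10) to the wide one of Gadd45a (−0.35 to 0.31).

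The mean of Wee1 was 10.8 ± 3.59 CPM over the Ctrl mice against 9.83 ± 1.35 CPM after the lesion (SD, n = 12 each), a log2 fold change of −0.13 ± 0.15 (SE) with a 95% interval from −0.44 to 0.17. Cdkn1a averaged 20.3 ± 6.55 and 17.6 ± 2.26 CPM, a log2 fold change of −0.21 ± 0.14 with an interval from −0.50 to 0.08, the largest of the 10 by size. Their means were thus not told apart between the groups. With 24 h cosine and sine terms per group in the level model, the log2 fold changes were −0.06 for Wee1 and −0.15 for Cdkn1a (edgeR adjusted p = 0.76 and 0.44). The spread of both genes over the mice, which in Ctrl includes the rhythm, was smaller in SCNx. The coefficient of variation went from 33.3% to 13.7% for Wee1 and from 32.2% to 12.9% for Cdkn1a. With a mean per group alone, the fold changes of the other 8 members lay between −0.09 and 0.03. For Cdkn1b the interval, from −0.04 to 0.10, leaves room for a rise of no more than 1.07-fold. For Trp53 it ran from −0.07 to 0.12. In 7 of the 10 members 1 to 3 SCNx mice lay outside the Ctrl range, and for Wee1, Cdkn1a and Gadd45a none did. The share over all genes was not computed, so no difference is read from this count. For Wee1 and Cdkn1a the Ctrl range includes the rhythm.

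It was also examined whether the members followed the clock state of each single mouse, as read from Dbp and Per2. Each member was correlated with Dbp and with Per2 over the 12 mice of a group on log2 CPM, which gave 40 relations over both groups. In SCNx, Dbp ranged from 16.6 to 39.7 CPM in 11 mice and was 88.5 CPM in the mouse of CT8, which was also the mouse with the highest Wee1. Pearson's r of Wee1 with Dbp was 0.74 (permutation p = 0.0108, adjusted p = 0.0873) and Spearman's rho was 0.52 (permutation p = 0.088, adjusted p = 0.27). Without the 2 mice farthest from the median of Dbp, CT8 and CT4, r was 0.26, over a narrower range of Dbp. Without CT0 and CT32 instead, r was 0.77 (permutation p = 0.016, adjusted p = 0.11) and rho 0.60 (permutation p = 0.072, adjusted p = 0.32). The size of r thus depended on which mice were left out. Cdkn1a with Dbp had an r of −0.17 and a rho of −0.14 (permutation p = 0.59 and 0.67, adjusted p = 0.70 and 0.81).

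**Figure D4:**
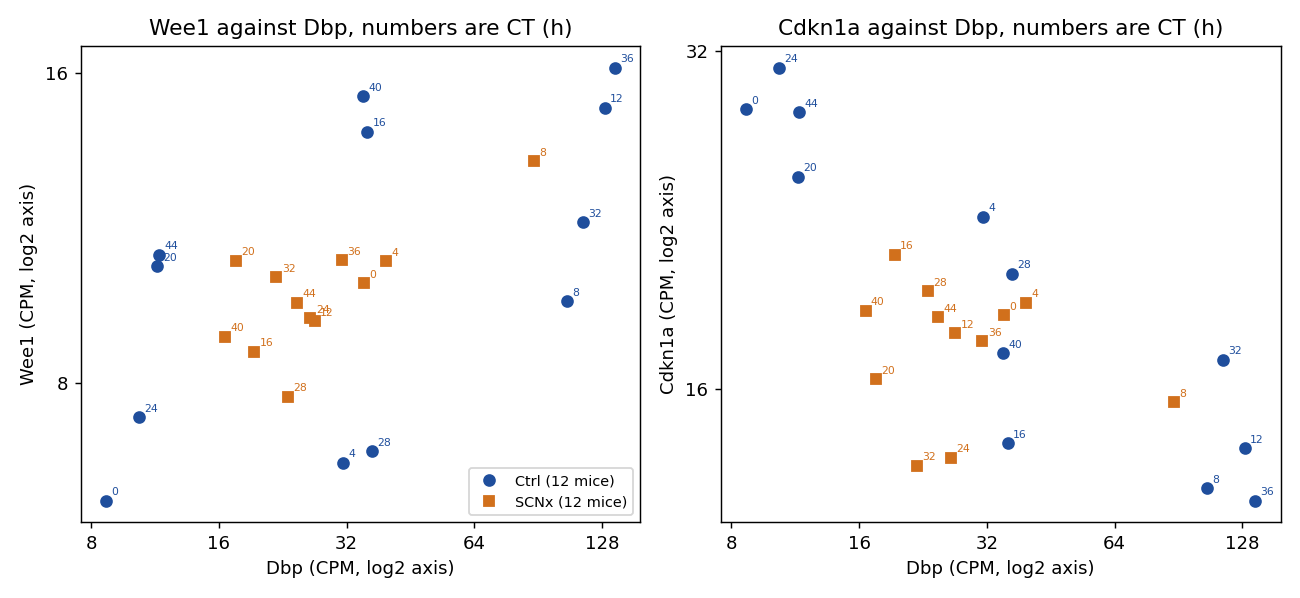
Wee1 (left) and Cdkn1a (right) against Dbp, in CPM on log2 axes, with 1 point per mouse in Ctrl (circles) and SCNx (squares) and the circadian time in hours beside it. The Ctrl mice lie in 3 bands of Dbp, and SCNx CT8 stands alone at 88.5 CPM of Dbp and 13.1 CPM of Wee1.

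With Per2 in SCNx, Wee1 had an r of 0.44 and Cdkn1a of −0.64 (permutation p = 0.15 and 0.0246, adjusted p = 0.34 and 0.14), with rho of 0.25 and −0.38 (permutation p = 0.43 and 0.22, adjusted p = 0.71 and 0.49). Without CT16 and CT24, the mice farthest in Per2, these r were 0.52 and −0.29. Without CT0 and CT32 they were 0.43 and −0.72 (permutation p = 0.21 and 0.0219, adjusted p = 0.45 and 0.11). None of the 20 relations in SCNx passed an adjusted p of 0.05. Ccnd1 with Per2 went from an r of 0.16 in all 12 SCNx mice to 0.81 without CT16 and CT24 (permutation p = 0.00465, adjusted p = 0.062). Without these 2 mice rho was 0.84 (permutation p = 0.00351, adjusted p = 0.0468). Without CT0 and CT32 instead, r was 0.10 (permutation p = 0.79, adjusted p = 0.87) and rho 0.26 (permutation p = 0.47, adjusted p = 0.73). The relation thus depended on which mice were left out. In Ctrl, 3 of 20 relations passed for Pearson's r, namely Wee1 with Per2 and both Cdkn1a and Mdm2 with Dbp. The share over all genes was not computed for such relations. Mdm2 with Dbp did not pass without CT0 and CT36, the mice farthest in Dbp (permutation test, adjusted p = 0.10). It passed without CT4 and CT16 (permutation test, adjusted p = 0.0237). The Dbp levels of Ctrl fell into 3 separate bands of 4 mice by time of day (8.68 to 11.6, 31.4 to 36.7 and 105.7 to 137.2 CPM), so no coefficient with Dbp is given there. Wee1 with Per2 in Ctrl had an r of 0.92 (permutation p = 8e-05, adjusted p = 0.0032) and a rho of 0.90 (permutation p = 0.00025, adjusted p = 0.005), and r was 0.92 without CT4 and CT28. Both genes also followed circadian time in these mice.

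The KO mice were examined for the difference between night and day within each group, without a test. In KO the targeted gene Arntl was at 10.6 CPM at ZT7 and 9.36 CPM at ZT18, a count that can include reads from the part of the gene that Cre leaves, so it checks nothing. The 2 KO libraries differed by a median of 0.12 on the log2 scale over all genes. Wee1 was at 5.80 CPM (101 counts) at ZT7 and 7.64 CPM (138 counts) at ZT18, a log2 difference of 0.40 with a 95% counting interval from 0.02 to 0.78. Cdkn1a was at 13.03 CPM (227 counts) and 12.02 CPM (217 counts), a difference of −0.12 with an interval from −0.39 to 0.16. With TMM scaling the differences were 0.27 for Wee1, with an interval from −0.11 to 0.66 that includes 0, and −0.24 for Cdkn1a, from −0.52 to 0.03. These intervals cover counting error only, and with 1 mouse per time the spread between mice is unknown. Several marker sums of other cell types were higher at ZT18 than at ZT7, with 412.6 against 255.3 CPM for fibroblasts, 436.9 against 326.2 for neurons, 446.2 against 306.9 for oligodendrocytes, 725.1 against 599.3 for astrocytes and 205.0 against 159.3 for endothelium. The macrophage sum was higher too (53.16 against 44.25). Sums of ependyma (42.08 against 47.0) and hepatocyte markers (313.9 against 325.6) were lower at ZT18. The part of these cell types in the KO differences was not tested.

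**Figure D5:**
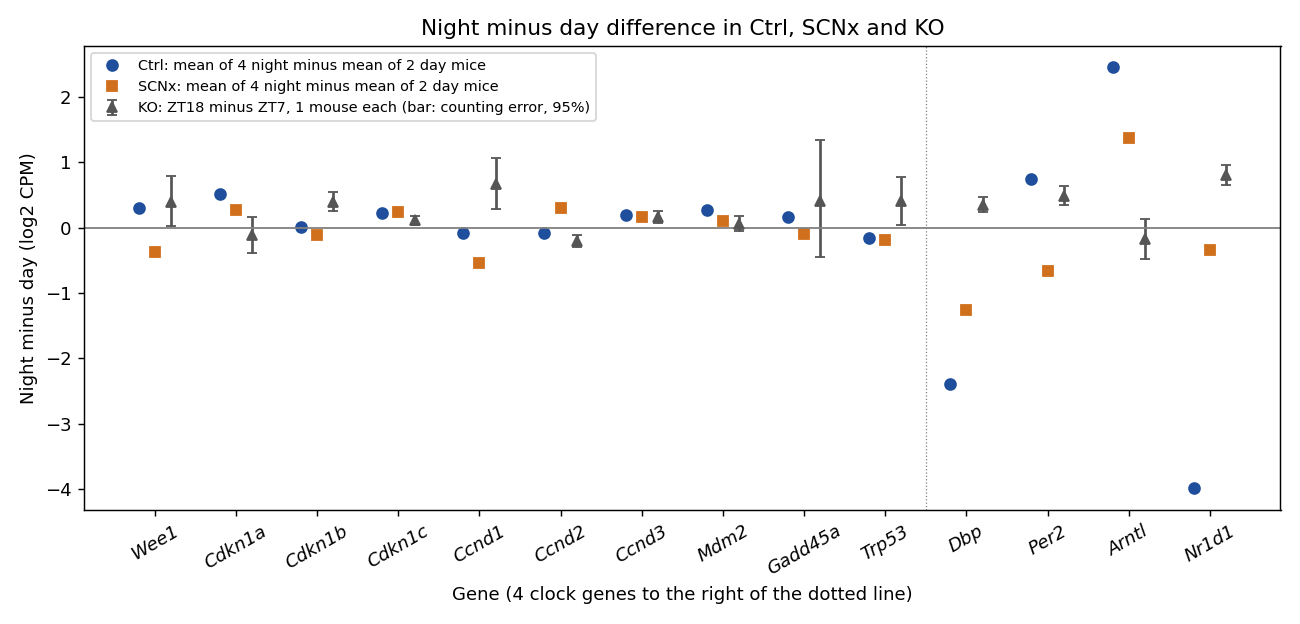
Night minus day on the log2 CPM scale (vertical axis) for the 10 genes and 4 clock genes, as the mean of 4 night mice minus the mean of 2 day mice in Ctrl (circles) and SCNx (squares), and as ZT18 minus ZT7 in KO (triangles, 1 mouse each) with the 95% counting interval. Arntl, the gene targeted in KO, stood at 2.46 in Ctrl, 1.37 in SCNx and −0.17 in KO, while Wee1 stood at 0.30, −0.37 and 0.40. In the same order of groups, Dbp stood at −2.39, −1.26 and 0.35, and Per2 at 0.74, −0.66 and 0.49. Nr1d1 stood at −3.995, −0.34 and 0.80. All values are without TMM factors.

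The sampled times nearest to those of KO were CT8 and CT32 for day and CT16, CT20, CT40 and CT44 for night. Night minus day of Wee1 was 0.30 in Ctrl and −0.37 in SCNx on the log2 scale, and that of Cdkn1a was 0.51 in Ctrl and 0.28 in SCNx. Of the 2 day mice of SCNx, CT8 had the highest Wee1 and Dbp of the group. CT32 had the highest sum of neuronal markers there. Cdkn1a was lowest in CT32 on TMM-scaled CPM (13.7 CPM, against 13.9 CPM in CT24), but in CT24 without TMM factors. No rhythm was called for either gene in SCNx (edgeR adjusted p = 0.65 for Wee1 and 0.74 for Cdkn1a). On CPM without TMM factors, night and day mice overlapped for Wee1 and Cdkn1a in Ctrl but not in SCNx. On TMM-scaled CPM they overlapped for Wee1 in SCNx too, with 10.5 CPM at CT20 (night) and 10.1 CPM at CT32 (day). The counts of genes below are without TMM factors unless TMM is named. Night and day mice did not overlap for 1 of 10 members in Ctrl (Trp53), against 27.1% of all genes, and for 2 of 10 in SCNx (Wee1 and Cdkn1a), against 16.2%. The choice of night mice moved these values. With CT20 and CT44 alone as night, the difference in Ctrl was 0.06 for Wee1 and 0.88 for Cdkn1a, and in SCNx −0.29 and 0.17. Night and day mice then did not overlap for 7 of 10 members in Ctrl, against 55.9% of all genes, and for 3 of 10 in SCNx, against 28.5%. In KO the counting interval excluded 0 for 7 of 10 members, against 51.5% of all genes. With TMM scaling, which removes the shift between the KO libraries, it did so for 3 of 10, against 48.3%. These were Cdkn1b (0.26, interval from 0.12 to 0.41), Ccnd1 (0.54, from 0.16 to 0.94) and Ccnd2 (−0.34, from −0.43 to −0.25). Cdkn1c and Mdm2 turned from 0.11 and 0.06 to −0.02 and −0.07 with TMM.

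Lists of related genes without the 10 members place them in their pathways. Of 28 p53 target genes 26 were tested and 5 were rhythmic in Ctrl, beside the 10.7% of all genes, with a median amplitude of 0.11, the same as over all genes. The smallest p were those of Phlda3, which restrains AKT, with an amplitude of 0.39 ± 0.05 and a peak at CT18.7 (edgeR adjusted p = 0.000166), Ccng1, encoding cyclin G1, with 0.21 ± 0.02 and a peak at CT18.3, and Tigar, encoding a fructose bisphosphatase, with 0.20 ± 0.04 and a peak at CT20.8. Phlda3 was the 1 gene of this list called for a difference between the groups (edgeR adjusted p = 0.0222). Of 14 regulators of p53, 11 were tested and 0 were called in Ctrl, while 3 had an unadjusted p under 0.05, beside the 24.8% of all genes.

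Of 21 genes of the G1 gate all were tested and 0 were called with edgeR, with 2 at an unadjusted p under 0.05 in Ctrl, where 10.7% of all genes were called and 24.8% had such a p. Of 13 genes of the G2 gate 6 reached the minimum and 0 were called, with 3 at an unadjusted p under 0.05. Of 15 proliferation genes 8 reached it and 3 had an unadjusted p under 0.05, and the 1 called in Ctrl was Mcm6, a subunit of the replicative helicase, with an amplitude of 0.26 ± 0.05 and a peak at CT9.37 (edgeR adjusted p = 0.0126). None of the genes of these 5 lists was called in SCNx or between the mean levels of the groups. Between the levels, 1 p53 target, 2 genes of the G1 gate and 1 proliferation gene had an unadjusted p under 0.05, and 0 in the other 2 lists, beside 9.37% of all genes.

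The genes most like Wee1 over the 12 Ctrl mice, by Pearson's r of log2 CPM as a description, were Gm32468 (0.98), Slc46a3 (0.98), Snw1 (0.97), Neu2 (0.97) and Lonrf1 (0.96). Their fitted peaks in Ctrl lay between CT13.2 and CT14.4. Those most like Cdkn1a were Gm33027 (0.97), Tesk1 (0.96), Zfp385a (0.96), Ier5 (0.95) and Arntl (0.95), with peaks between CT22.7 and CT23.7. These points share the times of death of the mice. Over the 12 SCNx mice, r was 0.85 for Slc46a3 with Wee1 and between 0.63 and 0.67 for the other 4, and with Cdkn1a it ranged from 0.06 for Tesk1 to 0.69 for Zfp385a.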

How the data were processed

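The authors depleted rRNA, enriched polyadenylated RNA and made libraries with KAPA mRNA HyperPrep (Ctrl and SCNx) or a Takara Smarter stranded kit (KO), mapped single-end reads to GRCm39 with nf-core/rnaseq and deposited Salmon's estimated counts per gene, not normalized. Per the labels, Salmon 1.9.0, StringTie 2.2.1, SAMtools 1.16.1 and cutadapt 3.4 were among the tools. The estimated counts were rounded. Of 55416 genes, the 13697 with a mean of at least 1 CPM in Ctrl and in SCNx were tested, and the 1705 rows whose name occurs more than once were kept apart by identifier. No pair of libraries was identical. No replicate mice share a time point. Depth was at least 38751201 counts per library in Ctrl and SCNx.

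Tests were edgeR 4.0.16 quasi-likelihood F tests (R 4.3.3) on TMM-scaled counts with Benjamini-Hochberg adjustment over all tested genes at 0.05. For rhythms, each group had its own mean and its own cosine and sine terms (period 24 h), and for levels its mean alone. SEs of amplitudes and peaks came from the scatter of log2 CPM around each group's curve. The rank test compared values with 132 templates and 1000000 random orders. Correlations used two-sided permutation tests with 100000 resamples, adjusted over 40 relations. Night minus day was taken on log2 CPM (prior count 1), without TMM factors unless stated. Counting intervals of KO were exact (Clopper-Pearson, 95%). Both kinds of test were also tried on simulated data with known changes. Python 3.11.15, scipy 1.17.1 and matplotlib 3.10.9 were used.

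The 10 genes and all lists were chosen with earlier results of these data known. Named were the 10 genes, 4 clock genes, up to 3 called genes of each pathway list with the smallest p per comparison, and the 5 genes most like Wee1 and Cdkn1a in Ctrl. Overlapping genes came from the GRCm38 annotation, which gave no coordinates for the counts. Alternatives were DESeq2 1.42.0, its size factors, limma-trend 3.58.1, other minimum levels, a linear trend, separate fits, a time point block, the study's thresholds of 0.25 and 0.4, and mice left out. Another put 24 h cosine and sine terms per group in the level model.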

Additional observations from a re-analysis of the deposited data

Results flagged for a closer look

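The rhythm of Wee1 differed between Ctrl and SCNx by a test of the difference itself (edgeR adjusted p = 0.00114), with log2 amplitudes of 0.66 ± 0.04 and 0.09 ± 0.08 (SE, n = 12 mice each). The rhythm of Cdkn1a differed between the groups in the same test (edgeR adjusted p = 0.00723), with amplitudes of 0.60 ± 0.06 and 0.08 ± 0.08. Without Ctrl CT16 and SCNx CT0, and without Ctrl CT4 and SCNx CT32, both were still called. Groups of 12 and of 2 mice were not searched for single outlying mice.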

How the results depend on the processing

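Wee1 and Cdkn1a kept the call of a rhythm in Ctrl and of a difference between the groups under every alternative computed, including each of the 24 fits without 1 mouse, where the adjusted p of the difference lay between 6.63e-05 and 0.00487 for Wee1 and between 0.00223 and 0.0192 for Cdkn1a. The number of members called rhythmic in Ctrl was 2, beside 10.7% of all genes. It was 3 (with Mdm2) under DESeq2 and with a minimum of 0.5 or 5 CPM, where 2053, 1512 and 1444 genes were called. It was also 3 without Ctrl CT16 and SCNx CT0 (1669 genes) and without Ctrl CT4 and SCNx CT32 (2223 genes). With a separate fit per group it was 4 (14.6% of all genes). At an adjusted p under 0.4 it was 7 (41.7%), and with the rank test at 0.4 it was 9 (50.6%). Without 1 mouse it was 2 to 4, with 4 without SCNx CT32. At 0.4, 1 member was called in SCNx (22.4% of all genes) and 4 for the difference (22.2%). With TMM scaling, 3 members had a KO interval off 0 (48.3% of all genes). With CT20 and CT44 as night, night and day did not overlap for 7 members in Ctrl (55.9% of all genes). Signs turned for small values whose tests were not called: the level difference of Gadd45a was 0.0066 with limma-trend, 0.00764 with a time point block and −0.0848 to 0.0558 without 1 mouse, and that of Ccnd1 was −0.0910 to 0.00581 without 1 mouse. The amplitude difference (Ctrl minus SCNx) of Cdkn1c was 0.0166 without Ctrl CT4 and SCNx CT32 and −0.0726 to 0.0254 without 1 mouse, and that of Ccnd3 was −0.0304 with a linear trend and −0.00285 to 0.0410 without 1 mouse. The cause was not tested. Over all genes, DESeq2 called 7 for the level, 432 for a rhythm in SCNx and 589 for the difference, and without a minimum level 1384 and 654 were called for the last 2. Without Ctrl CT4 and SCNx CT32, 2223 were rhythmic in Ctrl and 504 differed. The rank test called 923 in Ctrl. Without 1 mouse, the count in Ctrl ran from 918 (without Ctrl CT44) to 2249 (without SCNx CT32), while 163 differed when SCNx CT16 was left out and 466 when SCNx CT32 was, and at most 3 changed in level (without SCNx CT32) and 6 were rhythmic in SCNx (without SCNx CT24). Gadd45a was below a minimum of 5 CPM and was not tested there. The labels give no replicate numbers, but each time point holds 1 mouse of each group. With the time point as a block, the level differences of Wee1 and Cdkn1a were −0.07 and −0.15, and none of the 10 members nor of all genes was called. With 1 mouse per time point, small differences may have been missed. Gadd45a had 20 and 28 counts in the KO mice, so its small differences there were not detectable at this depth.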
